A study of Mus musculus with 6 samples.

Results

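The genes described here are 9 neuron genes measured in the ductus arteriosus (DA) of mouse embryos, namely *Th*, *Dbh*, *Phox2a*, *Stmn2*, *Tubb3*, *Prph*, *Chrna3*, *Ret*, and *Brinp3*. They were found by symbol among the 23997 genes of the deposited table. The list was chosen from sympathetic, pan-autonomic, and pan-neuronal genes with earlier results of these data known, and *Brinp3* was picked by its pattern across the libraries, so the difference between the groups is given for the 9 genes as a description, with no test.

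The DA is the fetal artery that joins the pulmonary artery to the aorta. RNA was sequenced from whole DA of C57BL/6 embryos at E17.5. The groups were 3 libraries labelled WT (wild type) and 3 labelled KO (Prdm6f/f; SM22-Cre), and neither group received a treatment. SM22-Cre expresses Cre-recombinase in smooth muscle cells, where it acts on the floxed *Prdm6* alleles, whereas no Cre driver of neurons was used. The sources used here do not say whether WT embryos carried the transgene or a floxed allele, nor whether a library holds 1 embryo or several, so the spread between libraries may be in part technical.

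Values are FPKM (mapped fragments of a gene, scaled by transcript length and library size), so that levels of different genes can be set side by side. FPKM holds no counts and the total depth is unknown, but the steps between low values place each library's depth at about 0.929 to 1.19 times the depth of WT library 1. This estimate is rough. For each other library it rests on 55 to 85 low genes shared with WT library 1, of which 9 to 19 gave the commonest step. Between 8338 and 11886 genes were listed at 0 in a library, and an exact 0 can be a failed estimate. All 11 markers of smooth muscle, the main cell type of this artery's wall, were above 0 in every library. *Prdm6* itself had 41.7, 48.4, and 19.8 FPKM in WT libraries 0, 1, and 2 and 48.6, 27.1, and 15.4 FPKM in KO libraries 0, 1, and 2. The whole-gene value thus overlapped between the groups, was highest in KO library 0, and cannot check the labels, on which each direction below rests. By qRT-PCR, the paper reports reduced *Prdm6* in the DA of mice of this KO genotype. KO library 0 also held transcripts of both the inactive X chromosome (*Xist*, 81.0 FPKM) and the Y chromosome (*Ddx3y*, 26.4 FPKM), whereas the other libraries were high in *Xist* or in *Ddx3y* only.

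Sympathetic and parasympathetic neurons arise from neural crest cells that settle along the great vessels and in the heart. The paired-type homeodomain factor Phox2a takes part in directing their autonomic fate and in switching on the enzymes that make noradrenaline, in which tyrosine hydroxylase (Th) makes L-DOPA and dopamine beta-hydroxylase (Dbh) makes noradrenaline from dopamine. The neurons build their axons with cytoskeletal proteins that include Stmn2, Tubb3, and Prph, receive preganglionic input through nicotinic receptors that contain the subunit Chrna3, and respond to glial cell line-derived neurotrophic factor family ligands through the receptor tyrosine kinase Ret.

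The promoters of 4 of the 9 genes are shown because they belong to the regulator Phox2a, to the noradrenergic enzymes, and to the gene picked by its pattern. They are RefSeq windows on GRCm38.p6, the assembly of mm10, from 250 bases before to 50 bases after the start of transcription, written 5′ to 3′ on the strand of the gene. They lie at chr7:142899946-142900245 on the minus strand for *Th*, and on the plus strand at chr2:27165257-27165556 for *Dbh*, chr7:101818063-101818362 for *Phox2a*, and chr1:146495379-146495678 for *Brinp3*, whose table entry has 3 windows. Capitals mark the homeodomain core ATTA read on either strand (ATTA or TAAT) and the cAMP response element TGACGTCA.
Th: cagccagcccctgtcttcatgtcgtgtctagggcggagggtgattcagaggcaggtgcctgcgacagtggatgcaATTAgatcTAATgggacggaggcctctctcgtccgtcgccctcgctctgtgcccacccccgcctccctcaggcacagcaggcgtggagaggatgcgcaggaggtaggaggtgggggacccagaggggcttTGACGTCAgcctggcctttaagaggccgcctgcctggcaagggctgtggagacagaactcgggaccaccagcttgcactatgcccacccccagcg
Dbh: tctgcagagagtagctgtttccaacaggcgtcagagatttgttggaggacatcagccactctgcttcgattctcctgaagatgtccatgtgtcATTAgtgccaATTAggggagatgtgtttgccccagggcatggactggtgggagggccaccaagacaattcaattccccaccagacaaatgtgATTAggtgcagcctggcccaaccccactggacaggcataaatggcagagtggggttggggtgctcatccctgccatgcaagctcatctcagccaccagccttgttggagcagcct
Phox2a: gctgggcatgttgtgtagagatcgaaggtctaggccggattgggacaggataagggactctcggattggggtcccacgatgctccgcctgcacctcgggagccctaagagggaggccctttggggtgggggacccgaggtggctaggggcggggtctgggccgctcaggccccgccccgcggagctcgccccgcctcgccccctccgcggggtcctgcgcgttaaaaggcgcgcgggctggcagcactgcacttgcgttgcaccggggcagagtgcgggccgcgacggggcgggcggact
Brinp3: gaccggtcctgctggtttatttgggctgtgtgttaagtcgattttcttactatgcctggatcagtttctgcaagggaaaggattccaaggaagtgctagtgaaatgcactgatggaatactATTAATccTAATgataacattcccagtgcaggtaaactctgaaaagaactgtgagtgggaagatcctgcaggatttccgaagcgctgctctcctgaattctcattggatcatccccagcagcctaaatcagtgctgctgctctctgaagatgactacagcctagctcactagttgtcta

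Of the 9 genes, 7 had a window, which gave 9 windows in all. TGACGTCA was found in the *Th* window only, beginning 45 bases before the start, and was in 1.79% of all 32851 windows. ATTA occurred 2 times in the *Th* window, 3 times in that of *Dbh*, and 3 times in each window of *Brinp3*, with matches on opposite strands overlapping in the one printed. It was not found in the windows of *Phox2a*, *Prph*, *Chrna3*, and *Tubb3*, and 58% of all windows hold it. TATAAA, searched on both strands, was in the *Prph* window and in 13.6% of all windows. These letters are a description of the windows, and binding was not measured.

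All 9 genes had their highest value in a KO library, but 5 of them had overlapping groups. *Stmn2*, *Phox2a*, *Ret*, and *Brinp3* were higher in each KO library than in any WT library. This is 4 of 9, a pattern that 7.48% of the 16953 genes above 0 in any library had, and the choice of the 9 genes used this contrast, so nothing is read from the share. Without KO library 0, the pattern held for 8 of 9 genes, all but *Th*, and for 14.9% of the 16953 genes. WT libraries 0, 1, and 2 had 2, 5, and 2 of the 9 genes above 0, whereas KO libraries 0, 1, and 2 had 7, 8, and 9.

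**Figure D1:**
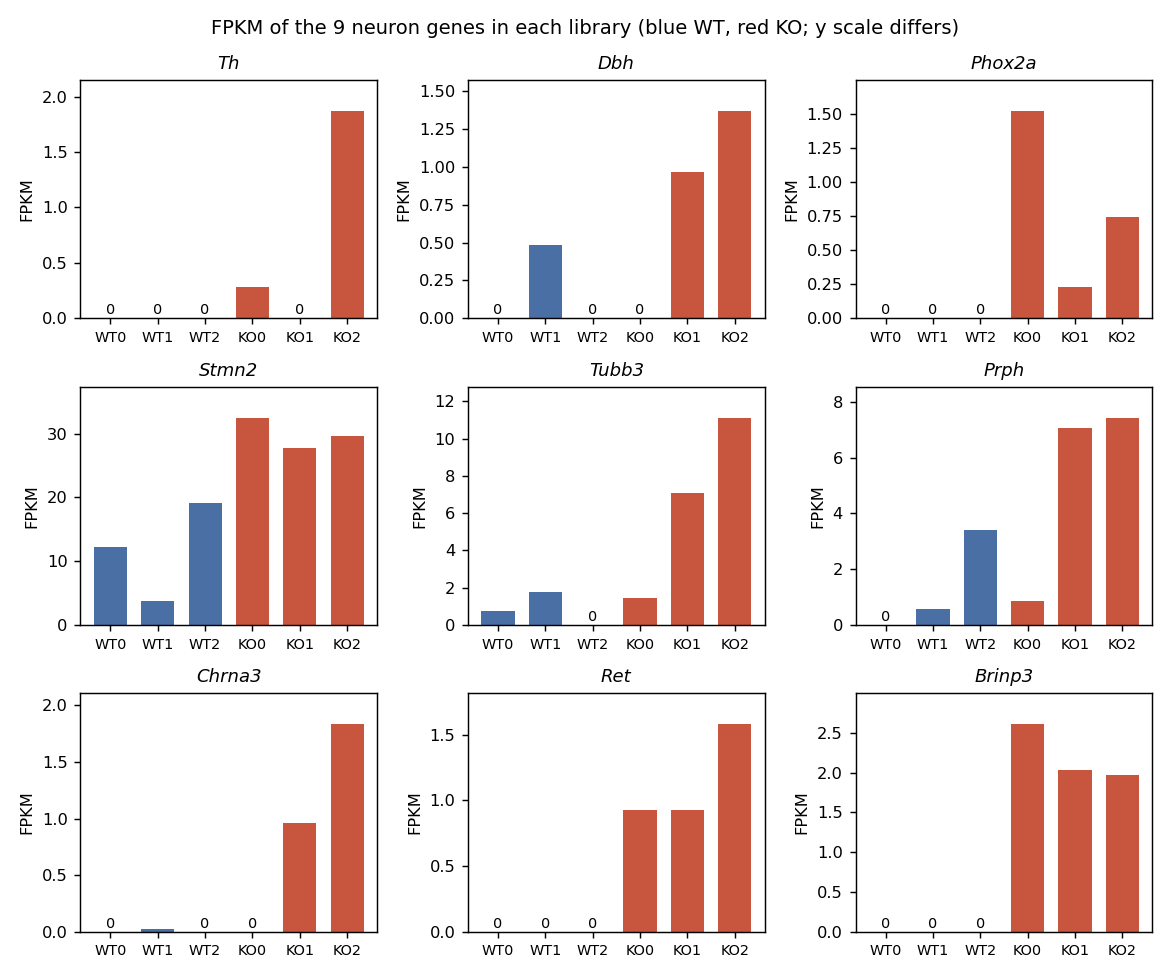
FPKM of the 9 neuron genes (y axis, linear, with a scale of its own in each panel) in each of the 6 libraries (x axis), with WT in blue and KO in red and 0 written where a gene is listed at 0. Each bar is 1 library. *Stmn2*, *Phox2a*, *Ret*, and *Brinp3* do not overlap between the groups, and KO library 0 is at 0 for *Dbh* and *Chrna3*.

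*Th* (7:142892752-142931128, minus strand, in GENCODE vM21 on GRCm38), which encodes the rate-limiting enzyme of catecholamine synthesis, was listed at 0 in all 3 WT libraries. In KO libraries 0, 1, and 2 it had 0.286, 0, and 1.87 FPKM. It was therefore above 0 in 2 of 3 KO libraries, and the groups overlap at 0. *Dbh* (2:27165233-27183200, plus strand) had 0, 0.481, and 0 FPKM in WT libraries 0, 1, and 2 and 0, 0.964, and 1.37 FPKM in KO libraries 0, 1, and 2. Its groups overlap as well, since KO library 0 was at 0 and WT library 1 was not. The difference of *Dbh* was 1.58 on the log2(FPKM + 0.1) scale (standard error 1.40), a scale that understates the change of low genes. Leaving out each library in turn moved it between 0.86 and 2.80.

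*Phox2a* (7:101818313-101822726, plus strand), the homeodomain regulator of noradrenergic identity, was listed at 0 in all 3 WT libraries. It had 1.52, 0.228, and 0.741 FPKM in KO libraries 0, 1, and 2, so that each KO library stood above the WT libraries. The annotated gene shares 95 bases with *Inppl1* on the opposite strand, which had between 11.2 and 22.2 FPKM in the 6 libraries. The sources do not state whether the quantification used strand, so fragments from the shared bases cannot be assigned. *Ret* (6:118151745-118197718, minus strand) was likewise at 0 in all 3 WT libraries and had 0.924, 0.929, and 1.58 FPKM in KO libraries 0, 1, and 2. *Chrna3* (9:55010111-55026562, minus strand) had 0, 0.0265, and 0 FPKM in WT libraries 0, 1, and 2. In KO libraries 0, 1, and 2 it had 0, 0.958, and 1.83 FPKM, so the groups overlap through KO library 0 alone. Its log2 difference was 2.45 (standard error 1.30), between 1.59 and 3.72 with each library left out.

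The cytoskeletal genes had the highest levels. *Stmn2* (3:8509360-8561606, plus strand), which encodes a microtubule-destabilizing protein of growing axons, had 12.3, 3.69, and 19.1 FPKM in WT libraries 0, 1, and 2. It had 32.5, 27.7, and 29.7 FPKM in KO libraries 0, 1, and 2, all above the highest WT value. The means were 11.7 ± 7.70 FPKM in WT and 29.96 ± 2.41 FPKM in KO (SD, n = 3 each), a log2 difference of 1.64 (standard error 0.54). WT library 1 was the lowest, and the difference was 0.96 without it and at most 2.13 without another library. *Stmn2* did not follow *Tubb3* closely (r = 0.21), and WT library 2, at 19.1 FPKM of *Stmn2*, had *Tubb3* at 0. Which cells made *Stmn2* was not tested.

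*Tubb3* (8:123411424-123422015, plus strand), the neuronal beta-tubulin, had 0.759, 1.76, and 0 FPKM in WT libraries 0, 1, and 2 and 1.46, 7.09, and 11.1 FPKM in KO libraries 0, 1, and 2. KO libraries 1 and 2 were above every WT library, whereas KO library 0 lay below WT library 1. Its log2 difference was 3.21 (standard error 1.31), between 1.99 and 4.10 with each library left out. The annotation places *Tubb3* wholly within the longer gene *Gm20388* on the same strand, which has no row in the table. *Prph* (15:99055174-99058978, plus strand), the intermediate filament of peripheral neurons, had 0, 0.586, and 3.40 FPKM in WT libraries 0, 1, and 2. In KO libraries 0, 1, and 2 it had 0.851, 7.05, and 7.43 FPKM, and KO library 0 again fell among the WT values. Its log2 difference was 2.58 (standard error 1.48), between 1.26 and 3.83 with each library left out.

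*Brinp3* (1:146494760-146902472, plus strand), a neural gene of the BMP and retinoic acid-inducible family, was listed at 0 in all 3 WT libraries and had 2.61, 2.03, and 1.97 FPKM in KO libraries 0, 1, and 2. Its values were thus alike in the KO libraries and KO library 0 was not the low one. With the levels ordered in the KO libraries, *Stmn2* at 27.7 to 32.5 FPKM stood above all the others. *Tubb3* and *Prph* overlapped each other at 0.851 to 11.1 FPKM, and *Brinp3* at 1.97 to 2.61 FPKM fell within their range. *Ret* at 0.924 to 1.58 FPKM overlapped *Phox2a*, *Chrna3*, *Dbh*, and *Th*, which all lay between 0 and 1.87 FPKM.

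Over the 6 libraries, *Brinp3* was most like *Ret* among the 9 genes (Pearson's r = 0.99 on the log2 scale) and next like *Phox2a* (r = 0.93). *Dbh* was most like *Chrna3* (r = 0.88) and *Tubb3* (r = 0.82), whereas *Dbh* and *Stmn2* were unrelated in level (r = 0.0043). *Brinp3*, *Ret*, and *Phox2a* thus share the pattern of 0 in WT and values above 0 in each KO library, and *Dbh*, *Chrna3*, and *Tubb3* that of KO library 0 falling low. These correlations are descriptions over 6 points that share library and group, which the choice of the genes used.

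*Th*, *Phox2a*, *Ret*, and *Brinp3* were the 4 genes at 0 in all 3 WT libraries, and *Phox2a*, *Ret*, and *Brinp3* were also above 0 in all 3 KO libraries. Of the 16953 genes above 0 in any library, 64 (0.378%) had the latter pattern, and the reverse pattern, 0 in all KO and above 0 in all WT libraries, was found in 6 (0.0354%). Genes at 0 were unevenly spread over the WT libraries. The KO values of *Phox2a*, *Ret*, and *Brinp3* ran from 0.228 to 2.61 FPKM, and zeros in the WT libraries are therefore given for genes from 0.5 to 5 FPKM. The lowest *Phox2a* value lies below these levels, and none of the 3 genes had all its KO values within a single range below. Among the 27 genes with 0.5 to 1 FPKM in all 3 KO libraries, 40.7% were listed at 0 in WT library 0, 3.70% in WT library 1, and 63.0% in WT library 2. Among the 102 genes with 1 to 2 FPKM in all 3 KO libraries, 19.6% were listed at 0 in WT library 0, 1.96% in WT library 1, and 38.2% in WT library 2. Among the 570 genes with 2 to 5 FPKM in all KO libraries the shares were 1.75%, 0.175%, and 16.8%. In the opposite direction, among the 38 genes with 1 to 2 FPKM in all 3 WT libraries, 2.63% were at 0 in KO library 0 and 0% in KO libraries 1 and 2. From 0.5 to 2 FPKM, a value of 0 was therefore common in WT libraries 0 and 2 and rare in WT library 1, where *Phox2a*, *Ret*, and *Brinp3* were also at 0. Lower levels were not examined. The part of these zeros in the differences of the 9 genes was not tested.

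**Figure D2:**
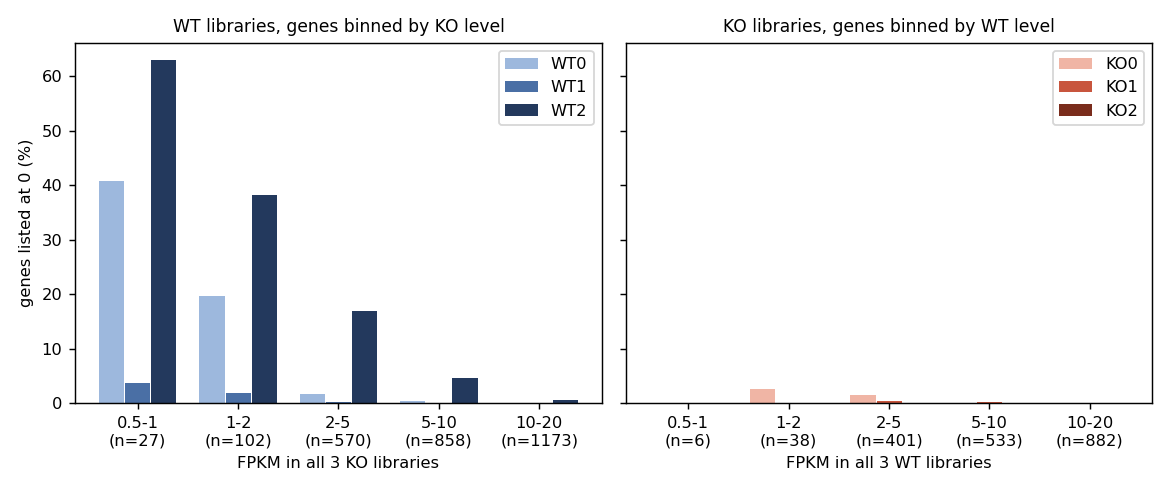
Percent of genes listed at 0 (y axis) in each WT library among genes binned by their FPKM in all 3 KO libraries (left, x axis), and in each KO library among genes binned by their FPKM in all 3 WT libraries (right), with the number of genes per bin under each. WT libraries 0 and 2 reach 19.6% and 38.2% at 1 to 2 FPKM, whereas WT library 1 and the KO libraries stay at or under 2.63% there.

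Only 4 of the 9 genes (*Stmn2*, *Tubb3*, *Prph*, and *Brinp3*) reached a mean of 1 FPKM over the 6 libraries and entered the fit across all genes. *Th*, *Dbh*, *Phox2a*, *Chrna3*, and *Ret* did not. Across the 12955 genes in the fit, limma with Benjamini-Hochberg adjustment called 1 gene (0.00772%) at an adjusted p under 0.05. That gene was *Rn45s*, the 45S ribosomal RNA precursor, which is no neuron gene. At an unadjusted p under 0.05, 429 genes (3.31%) were higher and 644 (4.97%) were lower in KO. All 3 KO libraries stood above all WT libraries for 1064 (8.21%) of these genes and below them for 1016 (7.84%), and the median log2 difference of all of them was 0.072.

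**Figure D3:**
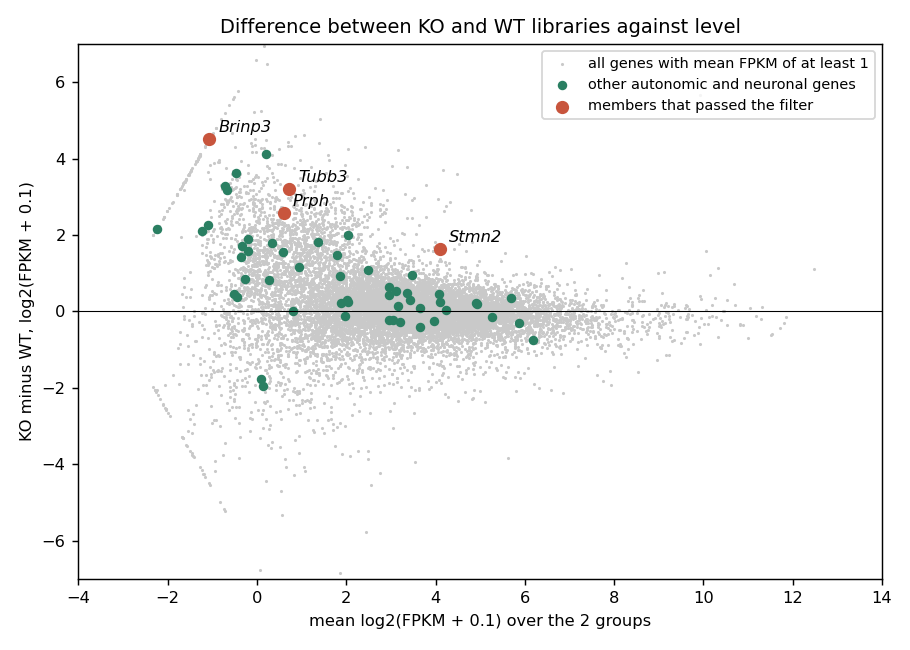
Difference between the groups (y axis, KO minus WT, log2(FPKM + 0.1)) against the mean level (x axis, same scale) for the 12955 genes in the fit, with the 4 neuron genes that passed in red and 52 other autonomic and neuronal genes in green. A few genes beyond 7 in either direction, *Rn45s* among them, lie outside the axes. *Tubb3*, *Prph*, and *Brinp3* sit at the low levels where differences of all genes scatter widely.

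The other genes of these pathways came from 7 lists that hold 94 genes besides the 9, of which 93 were in the table, 4 were at 0 in all libraries, and 52 entered the fit. None of the 52 was called (0 at an adjusted p under 0.05 in limma), whereas 2, *Gfra3* among them, were higher and 1, *Map1b*, was lower at an unadjusted p under 0.05. All KO libraries stood above all WT libraries for 5 of the 52 and below them for 2, beside 8.21% and 7.84% of all genes in the fit. The KO mean was the higher for 41 of 52 on the log2 scale, with a median difference of 0.45 beside 0.072 over all genes in the fit. Among the 93 genes, WT libraries 0, 1, and 2 had 58, 69, and 48 above 0, whereas KO libraries 0, 1, and 2 had 64, 68, and 87. Over all 23997 genes, the percent above 0 was 57.0, 63.2, and 50.5 in the WT libraries, compared with 59.1, 60.1, and 65.3 in the KO libraries, so that WT library 2 had the fewest and KO library 2 the most in both.

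Among the autonomic transcription factors, *Hand2*, which acts in noradrenergic differentiation but is also a factor of heart and mesenchyme, differed by -0.24 (limma, adjusted p = 0.953) and was lowest in WT library 0. Its sign turned with single libraries, from -1.40 without WT library 0 to 0.57 without WT library 2. *Gata3*, another noradrenergic regulator, lay between 0.199 and 1.28 FPKM and its groups overlapped. *Isl1* differed by 0.93 (limma, adjusted p = 0.689).

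Of the catecholamine genes, *Slc18a2*, the vesicular monoamine transporter, had 0, 0.646, and 0 FPKM in WT libraries 0, 1, and 2 and 2.24, 1.14, and 2.24 FPKM in KO libraries 0, 1, and 2. Its groups did not overlap, with a log2 difference of 3.28 (standard error 1.49) that did not pass (limma, adjusted p = 0.611). *Ddc*, which makes dopamine and is not restricted to neurons, differed by 0.39 (limma, adjusted p = 0.957), at -0.95 without WT library 2 and 1.69 without KO library 1. *Slc6a2*, the noradrenaline transporter, was at 0 in the WT libraries and KO library 0 and had 0.190 and 0.516 FPKM in KO libraries 1 and 2. *Slc18a1* and *Pnmt*, genes of adrenal chromaffin cells, were above 0 in KO library 2 only, and *Npy*, a peptide of sympathetic neurons, was listed at 0 in all 6 libraries.

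The receptors of neurotrophic factors did not follow *Ret* closely. *Gfra3*, the co-receptor of Ret for artemin, had 2.03, 0, and 0 FPKM in WT libraries 0, 1, and 2 and 1.83, 9.72, and 5.81 FPKM in KO libraries 0, 1, and 2, with a log2 difference of 4.12 (standard error 1.46) that did not pass (limma, adjusted p = 0.564). KO library 0 fell below WT library 0, so its groups overlapped. *Gfra2* differed by 1.07 (limma, adjusted p = 0.641) and *Ngfr* by 0.97 (limma, adjusted p = 0.680), both with KO libraries 1 and 2 high and KO library 0 among the WT values. Among the cholinergic genes, *Chat* was listed at 0 in all 6 libraries, *Slc18a3* was above 0 in KO library 2 only, and *Chrnb4*, the gene beside *Chrna3* whose product pairs with it, reached at most 0.368 FPKM.

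The other cytoskeletal and synaptic genes were mixed. *Map1b*, a microtubule-associated protein that is also made outside neurons, had 113, 92.6, and 77.9 FPKM in WT libraries 0, 1, and 2 and 58.3, 59.3, and 50.2 FPKM in KO libraries 0, 1, and 2. Every KO library was below every WT library, with a log2 difference of -0.74 (standard error 0.19) that did not pass (limma, adjusted p = 0.463). *Elavl4*, a neuronal RNA-binding protein, was at 0.495 to 0.645 FPKM in WT and 1.70 to 3.47 FPKM in KO libraries, without overlap (log2 difference 1.78, limma, adjusted p = 0.623). The synaptic vesicle gene *Syn1* went the other way, from 1.17 to 3.52 FPKM in WT to 0.285 to 0.583 FPKM in KO libraries (log2 difference -1.95, limma, adjusted p = 0.624).

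The growth cone gene *Gap43* differed by -0.28 (limma, adjusted p = 0.903), the neurofilament gene *Nefl* by 0.0049 (limma, adjusted p = 0.999), and the synaptic gene *Snap25* by 2.27 (limma, adjusted p = 0.742), all with overlapping groups. The sign for *Nefl* and *Gap43* turned with single libraries, *Nefl* being at 2.07 without KO library 0, where it is listed at 0, and at -1.10 without KO library 2, and *Gap43* at 0.50 and -0.81 without the same libraries. In each of the 3, KO library 0 was the lowest KO library and KO library 2 the highest. *Nefm* was at 0 in 4 libraries and *Elavl3* was above 0 in all 6, at no more than 1.77 FPKM. The relatives of *Brinp3* did not share its pattern. *Brinp1* had 10.5, 8.36, and 10.03 FPKM in WT libraries 0, 1, and 2 and 18.4, 7.94, and 11.4 FPKM in KO libraries 0, 1, and 2 (log2 difference 0.30, limma, adjusted p = 0.793, and -0.012 without KO library 0), and *Brinp2* was above 0 in KO library 2 only, at 0.523 FPKM.

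**Figure D4:**
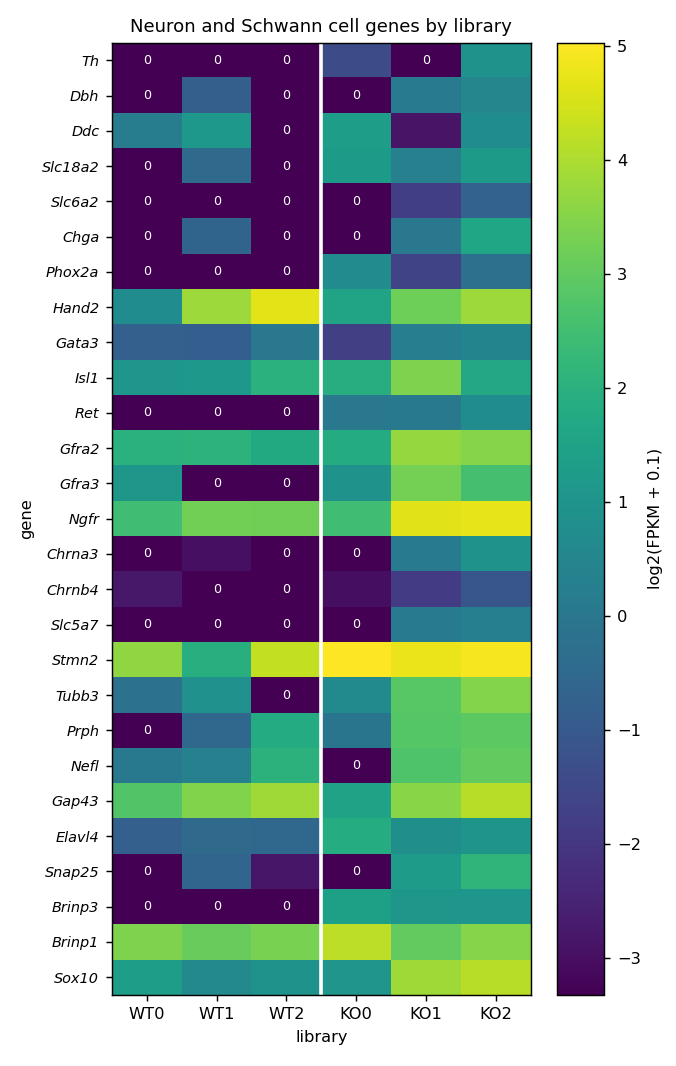
log2(FPKM + 0.1) (color scale) of neuron genes and the Schwann cell gene *Sox10* (rows) in each library (columns), with the white line between WT and KO and 0 written where a gene is listed at 0. Zeros gather in WT libraries 0 and 2, KO library 0 is at 0 for several genes of the noradrenergic and synaptic lists, and KO libraries 1 and 2 have the fewest zeros.

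Bulk values cannot tell fewer cells of a type from less RNA per cell, so markers of other cell types are given beside the neuron genes. The 16 markers of Schwann cells and satellite glia, which accompany autonomic nerves, all entered the fit, and 0 were called. At an unadjusted p under 0.05, 8 were higher and 1 (*Fxyd1*) was lower, beside 3.31% and 4.97% of all genes in the fit. Of the 16, 5 were higher in each KO library than in any WT library, *Erbb3*, *Cdh19*, and *Cnp* among them. Lower in each KO library was 1, *Fxyd1*, and the shares of all genes in the fit were 8.21% and 7.84%. *S100b* and *Pmp22* were also lower, with overlapping groups (log2 difference -2.11 and -0.27, limma, adjusted p = 0.687 and 0.701). *Erbb3*, the neuregulin receptor of Schwann cells, had 2.62, 1.22, and 1.27 FPKM in WT libraries 0, 1, and 2 and 4.15, 6.70, and 15.7 FPKM in KO libraries 0, 1, and 2 (log2 difference 2.18, standard error 0.64, limma, adjusted p = 0.533). The summed glial FPKM was 170 to 238 in WT and 175 to 418 in KO libraries, highest in KO library 2. *Pmp22* (82.6 to 115 FPKM) and *Fxyd1* (35.8 to 82.6 FPKM), both lower in KO, had the largest values of the 16 in each WT library. The sums therefore rest largely on these genes in WT, whereas the KO mean was the higher for 13 of the 16 on the log2 scale.

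Markers of other neurons were low, at levels that overlapped those of *Th*, *Dbh*, *Phox2a*, *Chrna3*, and *Ret*. In the sensory list, *Pou4f1*, *Pou4f2*, *Calcb*, and *Prdm12* were at 0 in all 6 libraries, and the sums were 1.86 to 3.73 FPKM in WT and 1.79 to 7.36 FPKM in KO libraries. *Runx1* had the largest value of this list in each WT library. It had 1.52 to 1.99 FPKM in WT and 0.991 to 1.29 FPKM in KO libraries (limma, adjusted p = 0.788). *Runx3* went the other way, at no more than 0.0797 FPKM in WT and 0.248 to 0.511 FPKM in KO libraries. *Tac1* reached 2.20 FPKM in KO library 2, and *Calca* had 1.70 FPKM in WT library 2 and 1.85 FPKM in KO library 2. *Npy* and *Chat* of the autonomic lists were also at 0 in all 6 libraries, so zeros alone do not separate types of neuron here. In the central list, *Neurod1*, *Neurod2*, *Neurod6*, *Slc32a1*, and *Mnx1* were at 0 in all 6, with sums of 0.561 to 1.25 FPKM in WT and 0.255 to 2.95 FPKM in KO libraries. The summed smooth muscle markers ran from 2554 to 5892 FPKM in WT and from 948 to 2462 FPKM in KO libraries, with 0 of 11 higher and 6 of 11 lower in each KO library than in any WT library, beside 8.21% and 7.84% of all genes in the fit. The summed heart muscle markers were highest in WT library 1 (1613 FPKM) and KO library 2 (1852 FPKM) and between 70.4 and 594 FPKM in the others, so they followed the libraries and not the labels. Without these 2 libraries, 5 of the 9 neuron genes had the KO libraries above the WT libraries, as did 18.6% of the 16953 genes above 0 in any library, and the log2 difference of *Stmn2* was 0.97. The summed erythroid markers were 3874 to 7586 FPKM in WT and 4302 to 24388 FPKM in KO libraries, and those of endothelium 345 to 522 and 453 to 665 FPKM. Leukocyte sums (42.5 to 237 and 45.2 to 285 FPKM) and lung epithelium sums (18.1 to 55.0 and 19.2 to 55.5 FPKM) overlapped widely. The part of each cell type in the levels of the neuron genes was not tested.

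Of the 18 nearest genes in the table, 1 on each side, 1 (*Sardh*, beside *Dbh*) was higher and 2 (*Clpb*, beside *Phox2a*, and *Pla2g4a*, beside *Brinp3*) were lower in each KO library than in any WT library, and 15 overlapped or were at 0. These counts are near the shares of all genes (7.48% above among genes above 0 in any library and 7.84% below in the fit), so nothing is read from them. *Chrna5* and *Chrnb4*, which flank *Chrna3*, reached at most 0.384 and 0.368 FPKM in any library.

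Outside the list, the 10 genes most like the mean of the other 8 neuron genes without *Brinp3* (each as a z score of log2(FPKM + 0.1), over 6 libraries) included *Cldn12*, *Prx*, *Prkx*, *Cadm1*, *Kif5a*, *Lgr4*, *H2-Eb1*, *Ptpdc1*, and *St8sia4*, with r from 0.97 to 0.99. *Prx* encodes a protein of peripheral myelin, and *Kif5a* encodes a neuronal kinesin. *Kif5a* had 0.568, 2.04, and 1.34 FPKM in WT libraries 0, 1, and 2 and 4.27, 8.76, and 25.6 FPKM in KO libraries 0, 1, and 2. The mean z score itself was -0.787, -0.573, and -0.614 in WT libraries 0, 1, and 2, compared with 0.206, 0.595, and 1.17 in KO libraries 0, 1, and 2, lowest among KO in library 0. The 5 genes most like *Brinp3* were *Rn45s*, *Tspan8*, *Olfr1034*, *Zfp810*, and *Tmppe*, with r of at least 0.989. *Rn45s* was listed at 0 in all 3 WT libraries and had 3060, 3806, and 4520 FPKM in KO libraries 0, 1, and 2. With so few libraries and 12955 genes searched, high correlations arise readily, and none is a test.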

How the data were processed

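The 6 libraries, 3 labelled WT and 3 labelled KO, were grouped by their titles. The authors aligned trimmed reads to mm10 with TopHat2 and made FPKM values per gene and library with Cufflinks and Cuffdiff. Their versions, gene annotation, use of strand, and scaling between libraries are not given in the sources used here. The deposited FPKM values are not counts, so no count test was used, total depth is unknown, and the depth of a library relative to the others was taken from the spacing of values under 0.15 FPKM.

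The test was limma 3.58.1 (R 4.3.3, two-sided, mean-variance trend in eBayes, no covariate) on log2(FPKM + 0.1), for those genes whose FPKM averaged 1 or more over the libraries, at a Benjamini-Hochberg adjusted p under 0.05. This code was tested on simulated data. Standard errors for *Dbh* and *Chrna3*, which are below the filter, come from the fit in which that minimum was 0.1. Python 3.11.15 made the tables and figures. Cuffdiff, which needs alignments, was not repeated. The paper, by its own test, reports more differentially expressed genes than the fit here called. Gene positions came from GENCODE vM21, with promoters from RefSeq. No fold is given where all WT libraries are at 0. A mean ± SD is given only for *Stmn2*, which has no 0.

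The 9 genes and all lists were chosen with earlier results of these data known. All 9 genes are named. Of the lists, the lineage-defining genes are named whatever their values, as are the genes of like pattern (10 for the mean of the 9 without *Brinp3*, and 5 for *Brinp3*), the neighboring genes, and the gene called. Other list genes named (*Isl1*, *Map1b*, *Syn1*, *Slc18a1*, *Pnmt*, *Slc18a3*, and the other glial, sensory, and central genes) were chosen after their values were seen. Alternatives changed the pseudocount, minimum FPKM, scaling, and variance model, added a replicate block, or left out libraries. A few list genes are not reported here.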

Additional observations from a re-analysis of the deposited data

How the results depend on the processing

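The median log2 difference of the 5 neuron genes with a WT value above 0 was 2.45, beside 0.072 over all genes in the fit. Over 17 alternatives it ran from 1.39 at a pseudocount of 1 to 3.71 at a pseudocount of 0.01, because low values depend on that number. Leaving out 1 library at a time gave 1.64 to 3.56. The genes were chosen with this contrast known, so nothing is read from the median remaining positive. The count of genes called was 1, and it was 2 without the mean-variance trend, 2 without moderation (the second gene in both was *Brinp3*, which was picked by this contrast, so nothing is read from it), and 2 without the pair of libraries highest in heart muscle transcripts. With each library left out it was 1 to 2, being 2 without WT library 1 and without KO library 2. The deviations of WT and KO libraries with the same number (0, 1, and 2) correlated at 0.12, -0.076, and -0.0088, beside -0.12 to 0.14 for unlike numbers. With 3 libraries a group this cannot show whether libraries were paired. The paper describes its controls as littermates, and the labels do not say which libraries share a litter. The replicate block called 1 gene and 0 of the other neuron genes, which had 0 calls in all 17 alternatives. At an unadjusted p under 0.05, between 0 (mean FPKM of at least 5) and 6 (mean FPKM of at least 0.1, or without KO library 0) of those other genes were higher in KO. The number of the 9 genes without overlap was 4, and it was 3 under quantile normalization. It was 5 without WT library 1, WT library 2, KO library 1, or the pair of libraries highest in heart muscle transcripts. Without KO library 0 it was 8, in a setting where 14.9% of the 16953 genes above 0 in any library had the pattern. With 3 libraries a group, no read counts, and 6 of the 9 genes never above 3 FPKM, a gene at 0 cannot be called absent.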
